A study of Mus musculus with 6 samples.

Results

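The genes described here are 7 B cell and immunoglobulin genes, Ighm, Igkc, Jchain, Cd79a, Cd79b, Ms4a1 and Pax5, out of 54752 genes counted in the right hippocampus of mice after bilateral carotid artery stenosis (BCAS). They were chosen as known genes of the B cell lineage and of antibodies, and each was matched to 1 Ensembl identifier of the count tables by its symbol. All 7 had counts, but 6 of the 7 passed the filter on low counts and were tested. Ms4a1 did not pass, and its raw counts are given, with a value from a fit without that filter beside them.

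The libraries came from male wild-type (WT) C57BL/6 mice (C57BL/6 J in the methods) of 14 weeks by the labels (read as their age), 3 with a sham operation and 3 with BCAS, and the tissue was taken 3 weeks after surgery. In BCAS mice a microcoil was placed around each common carotid artery, with the narrower coil on the right side, which lowers the blood flow to the brain without closing the vessels. Sham mice had the same surgery and anesthesia with no coil. Each library was made from the whole right hippocampus of 1 mouse, so cells of vessels, meninges and adjoining choroid plexus can contribute RNA. The comparison of BCAS mice with sham mice asks which transcripts of the hippocampus changed under chronic hypoperfusion.

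A B cell recognizes antigen through a membrane immunoglobulin, made of heavy and light chains, that signals through the paired proteins CD79A and CD79B. The variable part of each chain is assembled from V, D and J segments in each developing B cell, and it is joined by splicing to a constant region such as that of Ighm for IgM or Igkc for the kappa light chain. When B cells become plasma cells they secrete antibody in large amounts and lose PAX5 and CD20, the product of Ms4a1, while the J chain links IgM or IgA into polymers. The healthy brain parenchyma holds few B cells, and the meninges and the choroid plexus hold more.

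The V segments with the most counts over all libraries were Igkv4-59, a kappa segment, and Ighv1-80 and Ighv1-26, which are heavy chain segments. Their sequences are shown because each segment marks antibody transcripts that use it, and because close copies in the genome limit how far its reads can be told apart. The first 300 bases of the V exon are given 5′ to 3′ on the transcribed strand, from the GENCODE transcripts of build mm10. Capitals mark bases that differ from the most similar of the other germline segments among the 365 segments compared. Igkv4-59 lies on the minus strand at chr6:69438221-69438520 and was compared with Igkv4-70, to which its V exon was 96.0% identical. Ighv1-80 lies on the minus strand at chr12:115912349-115912648 and was 96.1% identical to Ighv1-82. Ighv1-26 lies on the minus strand at chr12:114788377-114788676 and was 97.4% identical to Ighv1-18.
Igkv4-59: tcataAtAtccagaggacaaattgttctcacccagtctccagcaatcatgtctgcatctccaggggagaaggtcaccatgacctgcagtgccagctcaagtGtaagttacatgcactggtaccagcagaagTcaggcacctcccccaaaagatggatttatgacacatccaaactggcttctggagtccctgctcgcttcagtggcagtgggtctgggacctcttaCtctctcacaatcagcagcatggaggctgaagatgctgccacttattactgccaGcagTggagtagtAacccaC
Ighv1-80: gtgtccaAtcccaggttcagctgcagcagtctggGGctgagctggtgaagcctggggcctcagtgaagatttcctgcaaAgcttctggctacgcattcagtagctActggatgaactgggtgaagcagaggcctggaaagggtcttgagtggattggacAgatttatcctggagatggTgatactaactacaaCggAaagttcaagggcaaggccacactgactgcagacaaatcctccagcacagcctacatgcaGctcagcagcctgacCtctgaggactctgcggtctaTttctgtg
Ighv1-26: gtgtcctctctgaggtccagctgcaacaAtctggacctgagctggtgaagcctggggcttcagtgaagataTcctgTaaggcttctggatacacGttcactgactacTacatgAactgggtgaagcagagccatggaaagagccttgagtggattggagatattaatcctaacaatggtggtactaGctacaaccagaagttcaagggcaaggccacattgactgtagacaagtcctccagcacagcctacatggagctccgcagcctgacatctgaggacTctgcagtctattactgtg
Of all stretches of 100 bases in the V exon, 149 of 204 in Igkv4-59, 206 of 206 in Ighv1-80 and 186 of 206 in Ighv1-26 occurred in no other annotated transcript. A read of Igkv4-59 or Ighv1-26 that lies wholly within a shared stretch cannot by itself be told from those of other segments. Longer reads or their mates may reach bases that differ. Single segments also had few counts, so sums over segments are used below.

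Of the 6 tested genes, 4 were significantly up-regulated in BCAS mice, namely Igkc, Cd79b, Jchain and Ighm. None of the 6 was down-regulated by edgeR, by DESeq2 or at an unadjusted P under 0.05. A gene was called differentially expressed (DEG) when its adjusted P value was under 0.05 and its log2 fold change exceeded 1 in either direction. Among all 18617 genes tested, 8.47% were up-regulated and 0.999% were down-regulated DEGs by the same rule. Every BCAS library lay above every sham library for 4 of the 6 tested genes, against 25.3% of all genes tested. Levels below are counts scaled to the size of the library (CPM), and a library with no count for a gene allows up to 3 counts, or 0.0874 to 0.0994 CPM, by counting error alone. In bulk tissue, a change in the number of B lineage cells and a change in RNA per cell cannot be told apart.

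**Figure D1:**
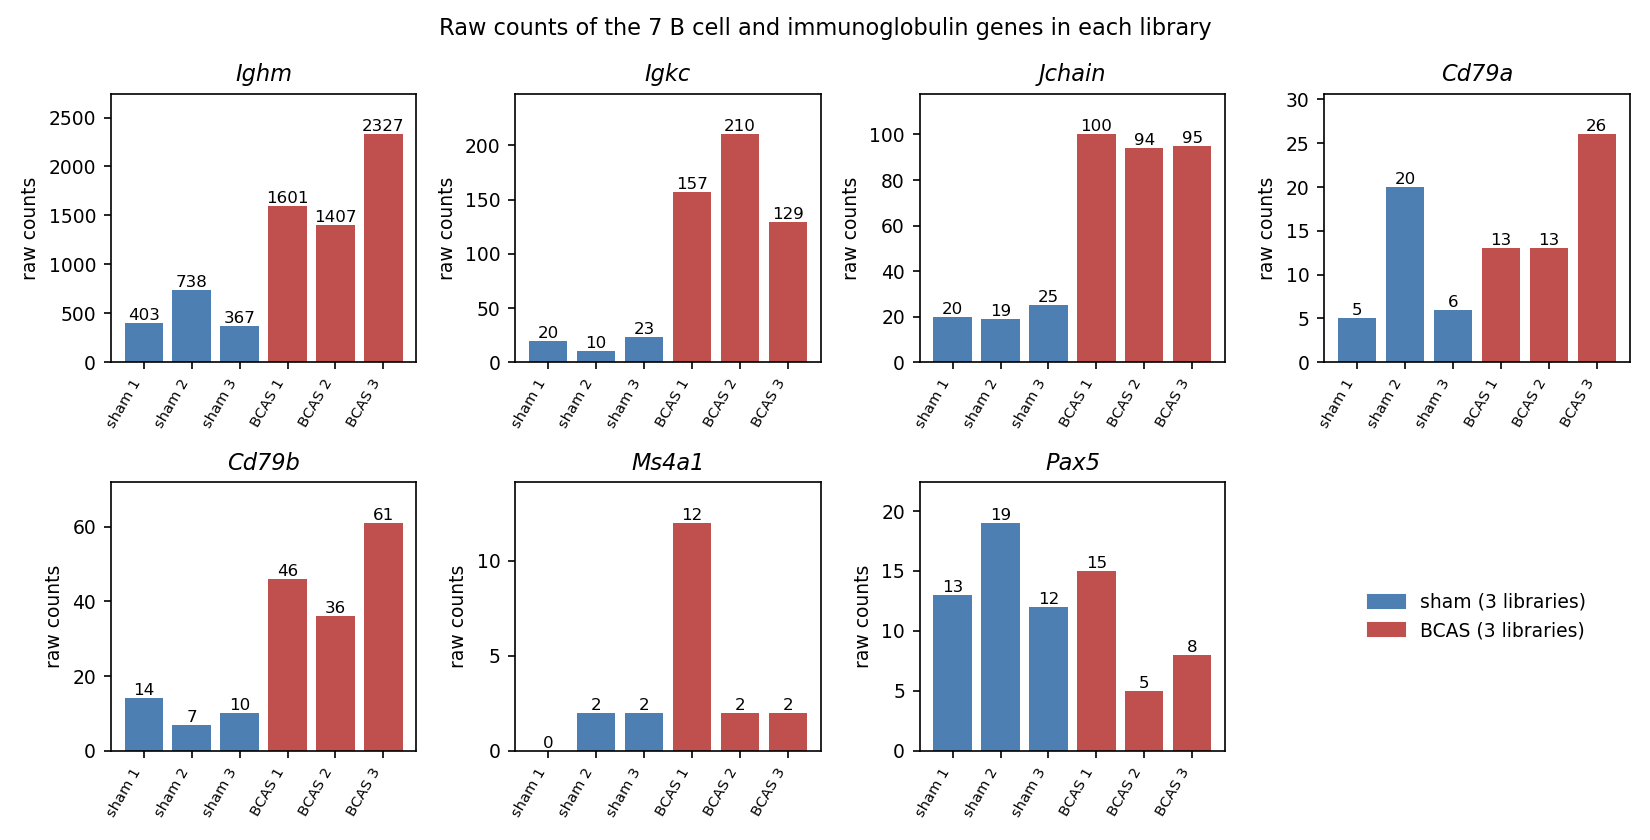
Raw counts of the 7 genes, with 1 bar per library, sham mice in blue and BCAS mice in red, on a separate axis for each gene. The BCAS bars stand above all sham bars for Ighm, Igkc, Jchain and Cd79b, and the groups overlap for Cd79a and Pax5, while Ms4a1 is high in 1 BCAS library.

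Ighm encodes the constant region of the mu heavy chain of IgM, the first antibody class a B cell makes. It is annotated on the minus strand at chr12:113418558-113422730 (mm10), with 6 blocks of exons. It had 403, 738 and 367 raw counts in sham mice 1 to 3 and 1601, 1407 and 2327 in BCAS mice 1 to 3. All 3 BCAS libraries lay above all sham libraries, and sham mouse 2 was the highest of its group. The level was 14.9 ± 6.26 CPM (SD, n = 3) under sham surgery against 56.8 ± 15.4 CPM (SD, n = 3) under BCAS. The log2 fold change was 1.93 (SE 0.28, edgeR adjusted P = 0.00136).

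Igkc encodes the constant region of the kappa light chain, which pairs with any heavy chain class and is the main light chain of mice. It is a single exon on the plus strand at chr6:70726435-70726966. It had 20, 10 and 23 counts in sham mice and 157, 210 and 129 in BCAS mice. The groups were far apart, with the lowest BCAS library several times above the highest sham library. The level was 0.520 ± 0.195 CPM (SD, n = 3) under sham surgery against 5.31 ± 1.47 CPM (SD, n = 3) under BCAS. The log2 fold change was 3.34 (SE 0.34, edgeR adjusted P = 1.83e-04), the largest of the tested members.

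Jchain encodes the joining chain of polymeric IgM and IgA, a product typical of antibody-secreting cells. The gene lies on the minus strand at chr5:88519809-88527891. It had 20, 19 and 25 counts in sham mice and 100, 94 and 95 in BCAS mice. Both groups were tight and did not overlap. The level was 0.629 ± 0.0869 CPM (SD, n = 3) under sham surgery against 3.08 ± 0.0355 CPM (SD, n = 3) under BCAS. The log2 fold change was 2.28 (SE 0.25, edgeR adjusted P = 2.65e-04).

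Cd79b and Cd79a encode the signalling partners of the membrane immunoglobulin, also called Ig-beta and Ig-alpha. Cd79b (minus strand, chr11:106311341-106314762) had 14, 7 and 10 counts in sham mice and 46, 36 and 61 in BCAS mice. No sham library reached the lowest BCAS library. The level was 0.305 ± 0.102 CPM (SD, n = 3) under sham surgery against 1.52 ± 0.392 CPM (SD, n = 3) under BCAS. The log2 fold change was 2.31 (SE 0.40, edgeR adjusted P = 0.00304). Its partner Cd79a was not a DEG. Cd79a (plus strand, chr7:24897381-24902197) had 5, 20 and 6 counts in sham mice and 13, 13 and 26 in BCAS mice. The groups overlapped, because sham mouse 2 lay above 2 of the 3 BCAS libraries. The level was 0.307 ± 0.253 CPM (SD, n = 3) under sham surgery against 0.554 ± 0.242 CPM (SD, n = 3) under BCAS. The log2 fold change was 0.85 (SE 0.62), and the difference did not pass (edgeR adjusted P = 0.332). With sham mouse 2 left out it was 1.76, also without a call (edgeR adjusted P = 0.0848). Both proteins are needed for 1 receptor. The ratio of Cd79b to Cd79a per kilobase of exon overlapped between the groups. It was 2.85, 0.356 and 1.70 in sham mice and 3.60, 2.82 and 2.39 in BCAS mice (exact two-sided permutation test, P = 0.3).

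Ms4a1 encodes CD20, a surface protein of mature B cells that plasma cells lack. It lies on the minus strand at chr19:11249675-11266241. It had 0, 2 and 2 counts in sham mice and 12, 2 and 2 in BCAS mice. Only BCAS mouse 1 stood out, and the other BCAS libraries were at the level of sham mice 2 and 3. These counts are mostly at or under the limit of 3 counts, and the mates of a pair each gave a count, so 2 counts can come from 1 fragment. A fit with no filter on low counts gave a log2 fold change of 1.98 (SE 1.30, edgeR adjusted P = 0.366). A difference in Ms4a1 was not detectable at this depth.

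Pax5 encodes a transcription factor that holds cells in the B cell lineage and is switched off in plasma cells. It lies on the minus strand at chr4:44524757-44710487. It had 13, 19 and 12 counts in sham mice and 15, 5 and 8 in BCAS mice. The groups overlapped, with BCAS mouse 1 above 2 sham mice. The log2 fold change was -0.54 (SE 0.51), and the difference did not pass (edgeR adjusted P = 0.453). Of its 8853 exonic bases, 761 are shared with genes on the other strand, and counting ignored strand. Pax5 is also used in the embryonic midbrain and hindbrain, so 4 genes of that boundary were read beside it. En1 had 0, 2 and 0 counts in sham mice against 6, 1 and 4 in BCAS mice, and Pax8 had 2 counts in sham mouse 2 only. Pax2 had 7, 13 and 14 counts against 4, 2 and 2, with no overlap, and did not pass the filter (no-filter fit, edgeR adjusted P = 0.123). En2 had more counts than these 3 genes in every library and overlapped between the groups, with 49, 43 and 25 counts against 28, 27 and 56 (log2 fold change 0.04, edgeR adjusted P = 0.957), and the part of these tissues in the Pax5 counts was not tested.

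**Figure D2:**
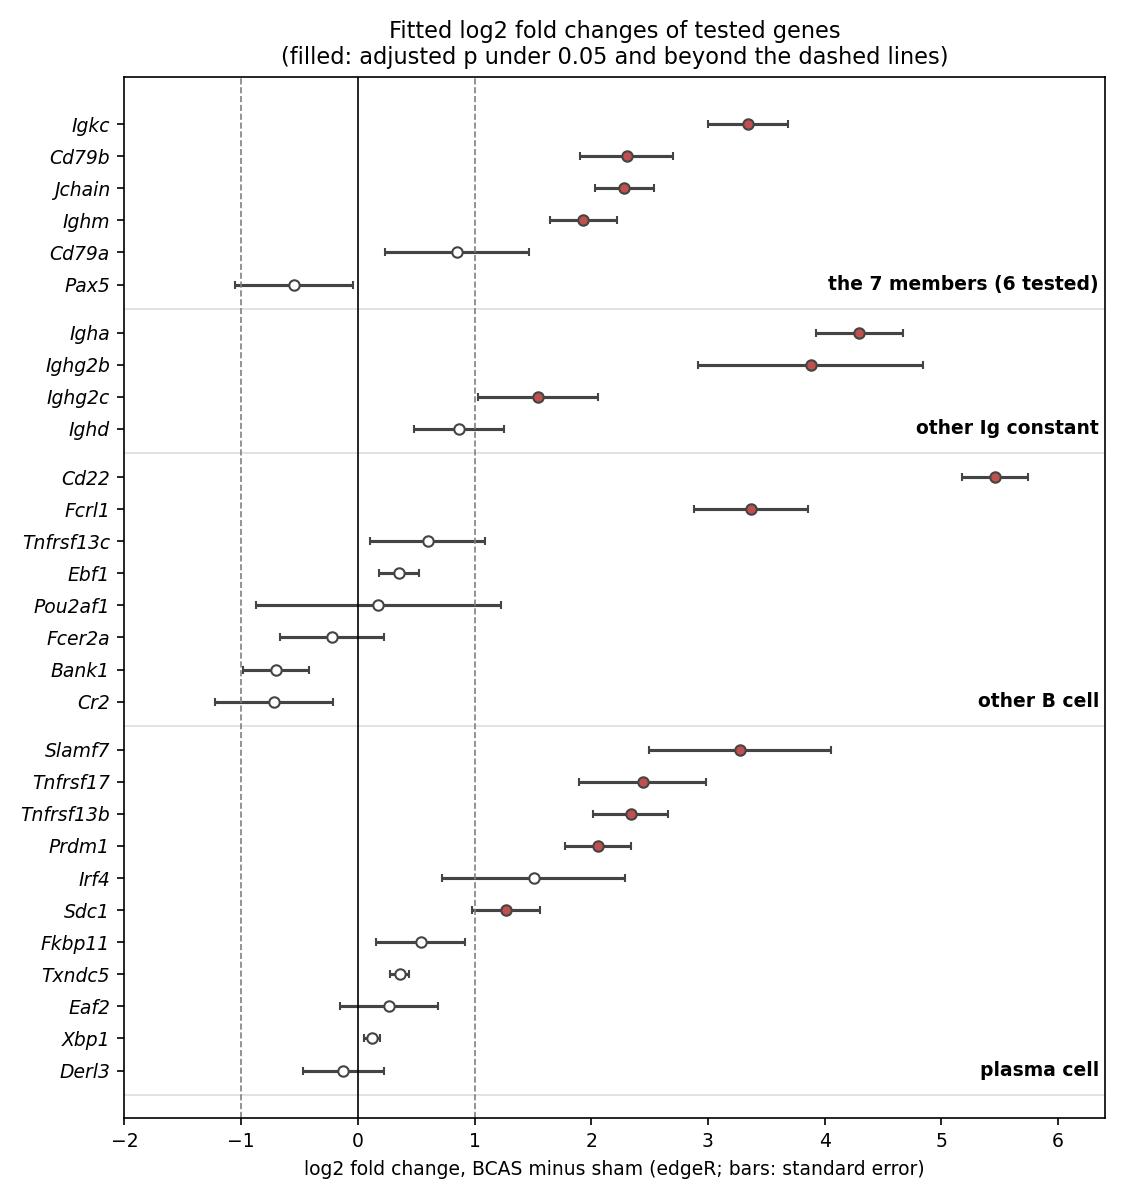
Log2 fold changes (BCAS minus sham, horizontal axis) of the tested genes among the 7 members, the other immunoglobulin (Ig) constant genes, other B cell genes and plasma cell genes. Points are edgeR estimates with standard errors from 3 libraries per group, and filled points are DEGs. Igkc lies at 3.34 and Pax5 at -0.54, while Cd22 lies at 5.46.

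The members differed widely in level, so levels were also compared per kilobase of exon. On this scale Ighm was the highest member in every library, with 5.67 to 11.7 CPM per kilobase under sham surgery against 24.7 to 39.5 under BCAS. Igkc followed in every library, with 0.562 to 1.26 against 7.77 to 13.1. In BCAS mice Jchain came next at 1.21 to 1.24, near Cd79b at 0.833 to 1.37, and these neighbours overlapped. Cd79a lay at 0.274 to 0.572, and Ms4a1 and Pax5 at 0.0104 to 0.0596 and 0.0187 to 0.0521. In sham mice Jchain, Cd79a and Cd79b overlapped, at 0.226 to 0.289, 0.101 to 0.411 and 0.146 to 0.289. In both groups the mu constant region was thus counted far above the receptor partners Cd79a and Cd79b.

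Ratios between members were compared between the groups with exact two-sided permutation tests of 3 against 3 libraries, whose smallest possible P is 0.1. In all, 7 ratios were compared, so no adjusted P could reach 0.05. Ighm to Igkc per kilobase was 5.68, 20.8 and 4.50 in sham mice and 2.88, 1.89 and 5.09 in BCAS mice, and the groups overlapped (exact P = 0.2). Ighm to Cd79a was 62.3, 28.5 and 47.3 in sham mice and 95.1, 83.6 and 69.1 in BCAS mice, with no overlap (exact P = 0.1). Sham mouse 2 stood apart in the first of these, with many Ighm counts and few Igkc counts. Ighm to Cd79b and Ighm to Jchain overlapped between the groups (exact P = 0.9 and 0.7), as did Igkc to Cd79b (exact P = 0.2).

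The other constant genes tell which constant regions were counted, whether or not they were joined to a V segment. Of 11 listed genes 10 were in the tables, 4 were tested and 3 of the 4 were up-regulated DEGs, and Ighg2a was not analysed here. Igha, the constant region of IgA, had 12, 8 and 18 counts in sham mice and 175, 319 and 197 in BCAS mice. The groups did not overlap, and the log2 fold change of 4.30 (SE 0.37, edgeR adjusted P = 7.77e-05) was above that of any of the 6 tested members. Ighg2b, of an IgG class, had 0, 1 and 4 counts in sham mice and 16, 47 and 9 in BCAS mice. Its log2 fold change was 3.88 (SE 0.96, edgeR adjusted P = 0.0156), and the call was lost without sham mouse 1 (adjusted P = 0.0593) or sham mouse 2 (adjusted P = 0.0572). Leaving out sham mouse 3 moved it to 5.38 and leaving out BCAS mouse 2 to 2.89. Ighg2c, of the IgG class that C57BL/6 mice carry in place of IgG2a, had 8, 30 and 10 counts in sham mice and 34, 50 and 46 in BCAS mice. Its log2 fold change was 1.55 (SE 0.52, edgeR adjusted P = 0.0491), and the call was lost without sham mouse 1, sham mouse 3 or any 1 of the BCAS mice (adjusted P = 0.0565 to 0.155) and with RLE size factors (0.0501). Without sham mouse 2 the log2 fold change was 2.38. Without sham mouse 1, 1 of the 4 tested genes was a DEG. Ighd, the IgD heavy chain of naive B cells, had 16, 28 and 35 counts in sham mice and 37, 36 and 60 in BCAS mice. The 2 groups came within 1 count of each other, and the log2 fold change of 0.87 (SE 0.39) did not pass (edgeR adjusted P = 0.123). Ighg1 had 4, 1 and 0 counts in BCAS mice and none in sham mice, and Ighg3 and Ighe had no count in any library.

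**Figure D3:**
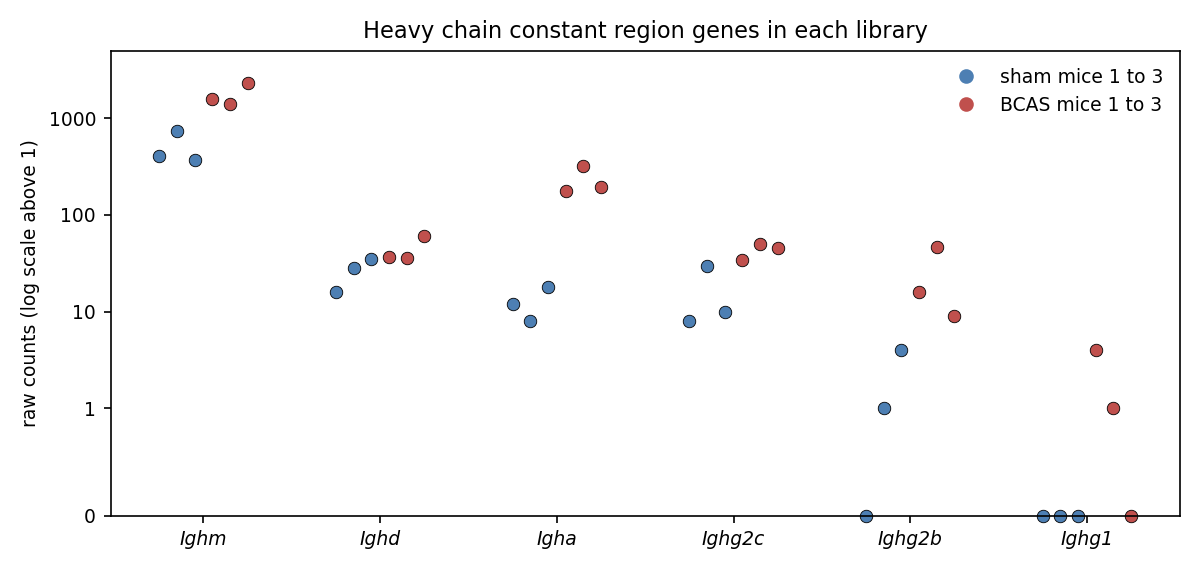
Raw counts of the heavy chain constant genes in each library (vertical axis, logarithmic above 1), with sham mice in blue and BCAS mice in red, libraries 1 to 3 from left to right within each color. Ighm is the highest gene in all 6 libraries, and Igha has 8 to 18 counts under sham surgery against 175 to 319 under BCAS.

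The make-up of the heavy chain counts was described by the share of each constant gene in a library. Ighm held 91.8%, 91.7% and 84.6% in sham mice and 85.8%, 75.6% and 88.2% in BCAS mice, and the groups overlapped. Igha held 2.73% (95% exact binomial interval 1.42 to 4.73), 0.994% (0.430 to 1.95) and 4.15% (2.48 to 6.48) in sham mice. It held 9.37% (8.09 to 10.8), 17.2% (15.5 to 18.9) and 7.46% (6.49 to 8.53) in BCAS mice. All 3 BCAS libraries had a larger IgA share than the sham libraries, and BCAS mouse 2 had the largest. The intervals cover counting error only, and the counts of mates are not independent. Igha to Jchain per kilobase was 0.566, 0.397 and 0.679 in sham mice and 1.65, 3.20 and 1.96 in BCAS mice, with no overlap (exact two-sided permutation test, P = 0.1, the smallest possible).

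Light chains were almost all kappa. The lambda constant genes Iglc1, Iglc2 and Iglc3 together had no count in sham mice and 12 counts over the 3 BCAS libraries. Kappa made up 98.1% (95% exact binomial interval 94.6 to 99.6), 96.8% (93.5 to 98.7) and 98.5% (94.6 to 99.8) of light chain constant counts in BCAS mice. In sham mice all 20, 10 and 23 light chain counts were kappa, which at this depth allows a kappa share as low as 83.2%, 69.2% and 85.2%. A difference in the share was not detectable.

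V segments give a further readout of antibody transcripts. It is not independent of the constant genes, because both lie on the same spliced transcripts and both mates of a pair were counted. The tables hold 348 V segments, 185 of the heavy chain, 160 of kappa and 3 of lambda. Their summed counts were 10, 19 and 19 in sham mice and 212, 236 and 170 in BCAS mice. All BCAS sums lay far above all sham sums. The level was 0.472 ± 0.154 CPM (SD, n = 3) under sham surgery against 6.59 ± 1.19 CPM (SD, n = 3) under BCAS, a 14.4-fold difference between geometric means, or 3.85 between means on the log2 scale (exact two-sided permutation test, P = 0.1, the smallest possible). Heavy chain segments had 5, 4 and 6 counts in sham mice and 89, 103 and 68 in BCAS mice, and kappa segments had 5, 15 and 13 against 123, 128 and 101. The heavy and kappa sums were thus both higher in every BCAS library, by 18.8-fold and 12.7-fold between geometric means (exact P = 0.1 for each). Lambda segments had no count in sham mice and 0, 5 and 1 in BCAS mice. The heavy chain segments had far fewer counts than Ighm, with 403, 738 and 367 in sham mice and 1601, 1407 and 2327 in BCAS mice. Kappa segments lay nearer to Igkc, with 20, 10 and 23 against 157, 210 and 129. The part of Ighm transcripts without a V segment in the Ighm counts was not tested.

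The counts were spread over many segments. In sham mice 7, 6 and 10 segments had counts, and in BCAS mice 58, 40 and 42. More counts alone also show more segments, and the part of depth in these numbers was not tested. Over all libraries 99 segments had a count, 22 in sham mice and 89 in BCAS mice, with 12 in both. Of the 89, 8 had counts in all 3 BCAS mice, 35 in 2 of the 3 and 46 in 1. The most counted segment took 6.60%, 14.4% and 9.41% of the V counts of BCAS mice 1 to 3. No single segment therefore made up most of the V counts in a BCAS library.

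The segments printed above show how the mice differed. Igkv4-59 had no count in sham mice and 5, 33 and 6 in BCAS mice. Ighv1-80 had no count in sham mice and 9, 34 and 0 in BCAS mice. Both were highest in BCAS mouse 2, and Ighv1-80 was not seen in BCAS mouse 3. Ighv1-26 had no count in sham mice and 9, 14 and 10 in BCAS mice, an even spread over the mice. The 4 heavy chain J segments together had 7, 4 and 6 counts in sham mice and 15, 15 and 19 in BCAS mice (exact P = 0.1, permutation test), while the 5 kappa J segments had 1 count in all and the 20 heavy chain D segments had none.

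**Figure D4:**
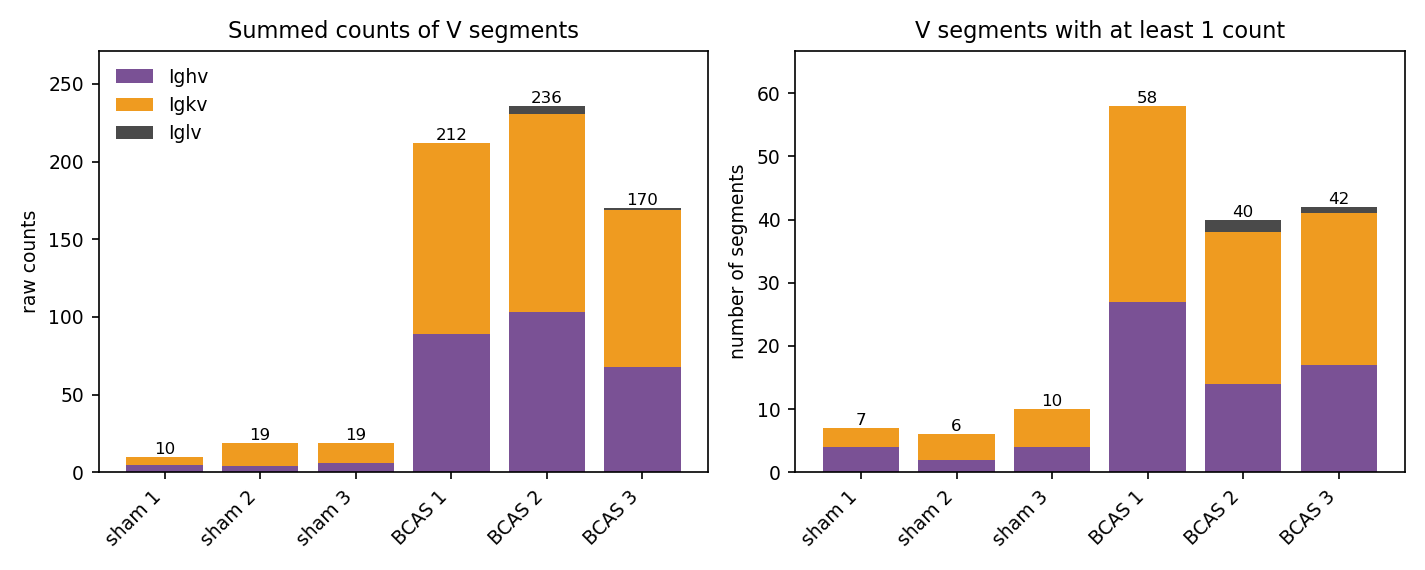
Summed raw counts of V segments (left) and number of V segments with at least 1 count (right) in each library, split into heavy chain (Ighv), kappa (Igkv) and lambda (Iglv) segments. The sums are 10 to 19 counts for sham libraries and 170 to 236 for BCAS libraries, from 6 to 10 and 40 to 58 segments.

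Other genes of the B cell lineage were read from a list of 14, of which 8 were tested. Cd22, a receptor that dampens B cell signalling, and Fcrl1, an Fc receptor-like protein of B cells, were the 2 up-regulated DEGs. Cd22 had 9, 5 and 9 counts in sham mice and 270, 290 and 389 in BCAS mice (log2 fold change 5.46, SE 0.29, edgeR adjusted P = 1.16e-05). Fcrl1 had 9, 8 and 10 counts in sham mice and 47, 69 and 144 in BCAS mice (log2 fold change 3.37, SE 0.49, edgeR adjusted P = 0.00124). Neither overlapped between the groups, and Cd22 is also made by microglia. Blk, a kinase of B cells, had 0, 0 and 2 counts in sham mice against 6, 4 and 2 in BCAS mice, and Cxcr5, the receptor that guides B cells into follicles, had none against 0, 10 and 7. Neither passed the filter, and a fit without it gave an adjusted P of 0.345 for Blk and called Cxcr5 (edgeR adjusted P = 0.0458), which had counts in 2 of the 3 BCAS mice. Cr2 and Fcer2a, markers of mature B cells, were tested and did not pass, with log2 fold changes of -0.72 and -0.22 (edgeR adjusted P = 0.316 and 0.747). The median log2 fold change of the 8 tested genes was 0.27, against 0.02 over all genes tested and 2.11 over the 6 tested members.

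Genes that carry the signal of the B cell receptor but are also used by myeloid cells were read from a list of 15. All 15 tested were up-regulated DEGs, with a median log2 fold change of 3.11. Cd72, a receptor of B cells and macrophages, had a log2 fold change of 5.68, Cd180 of 4.55, the inhibitory Fc receptor Fcgr2b of 4.01 and the phosphatase Ptpn6 of 3.57. Microglia markers moved with them. All 6 microglia markers were up-regulated DEGs, and their summed level was 291 to 303 CPM in sham libraries against 1408 to 2248 CPM in BCAS libraries. The part of microglia in these signalling genes, and in Cd22, was not tested.

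Plasma cell genes gave 5 up-regulated DEGs of 11 tested and 12 listed, and 3 with the counts halved, where Slamf7 and Tnfrsf17 did not pass the filter and have no value. Slamf7 had 4, 1 and 12 counts in sham mice and 18, 83 and 51 in BCAS mice (log2 fold change 3.27, edgeR adjusted P = 0.0132), a call lost without sham mouse 1 (adjusted P = 0.0623). Its log2 fold change was 4.40 without sham mouse 3 and 2.68 without BCAS mouse 2. Tnfrsf17, the survival receptor BCMA of plasma cells, had 4, 2 and 7 counts against 26, 14 and 27 (2.44, edgeR adjusted P = 0.00991). These 2 genes did not overlap between the groups. Tnfrsf13b had a log2 fold change of 2.34 and Prdm1, the regulator that drives plasma cell differentiation, of 2.06. Sdc1, which encodes the plasma cell surface protein CD138 and is also made by epithelia, changed less, with 1.27. The part of other cell types in these 5 up-regulated genes was not tested. The 6 tested genes of this list that were not DEGs included Derl3, Xbp1 and Txndc5. Their log2 fold changes were -0.13, 0.12 and 0.36 (edgeR adjusted P = 0.816, 0.229 and 0.00937). Txndc5 thus passed the limit on adjusted P but lay under the fold change threshold. The chaperone Mzb1 had 5, 4 and 10 counts in sham mice and 9, 11 and 4 in BCAS mice and did not pass the filter (no-filter fit, edgeR adjusted P = 0.758).

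Genes of V(D)J recombination and of the germinal centre showed no DEG among 3 tested of 8 listed, with edgeR and with DESeq2, and 2 of the 3 had an unadjusted P under 0.05. Rag1, a subunit of the recombinase, had 8, 6 and 3 counts in sham mice against 0, 2 and 8 in BCAS mice, and its partner Rag2 had 2 counts in sham mouse 2 only. Both had low counts in all 6 libraries. S1pr2 had a log2 fold change of 0.97 (edgeR adjusted P = 0.0204), just under the fold change threshold. It was a DEG without sham mouse 2 or without BCAS mouse 1 and with library totals. Bcl6, which neurons also express, had -0.31 (edgeR adjusted P = 0.0245).

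Among factors that attract B cells or sustain them, 4 of 8 tested and 16 listed were up-regulated DEGs. DESeq2 also called 4 genes of the list higher, with Tnfsf13 not among them. Cxcl13, the chemokine that draws B cells through CXCR5, had no count in sham mice and 71, 40 and 173 in BCAS mice. Against the limit of 3 counts per library it was at least 34.1-fold higher in BCAS mice (edgeR adjusted P = 0.00150), and at least 19.8-fold higher without BCAS mouse 3, which held most of the counts. This limit takes each mate as an independent count. Ltb, a lymphotoxin subunit, had 23, 9 and 11 counts in sham mice and 44, 56 and 60 in BCAS mice (log2 fold change 2.01, edgeR adjusted P = 0.00700). Tnfsf13b, the B cell survival factor BAFF, had 56, 55 and 48 counts against 103, 142 and 193 (1.58, edgeR adjusted P = 0.00313). None of these 3 genes overlapped between the groups. Tnfsf13, the related factor APRIL, had 18, 11 and 13 counts against 30, 30 and 31 (1.22, edgeR adjusted P = 0.0305), and this call was lost with DESeq2 (adjusted P = 0.0621), with no filter on low counts (edgeR adjusted P = 0.0585) and without any 1 of sham mice 2 and 3 or the BCAS mice (adjusted P = 0.0661 to 0.109). Of the genes that bind or carry antibody, Trim21, a cytosolic antibody receptor, was a DEG, with 90, 126 and 82 counts against 257, 209 and 371 (edgeR adjusted P = 0.00218). Fcgrt, the neonatal Fc receptor, was just under the fold change threshold (0.96, edgeR adjusted P = 3.86e-04) and passed it with library totals and without sham mouse 3 or BCAS mouse 2. Pigr, which carries IgA and IgM across epithelia, had 2 counts in each sham mouse and 0, 0 and 2 in BCAS mice.

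Markers of other cells that the tissue could hold were read beside the members. Of 12 T cell markers 9 were up-regulated DEGs (10 with DESeq2), and their summed level was 2.95 to 4.49 CPM in sham libraries against 13.6 to 19.3 CPM in BCAS libraries. Cd3d had 1, 0 and 0 counts in sham mice and 20, 24 and 30 in BCAS mice, and Cd3e and Cd3g had at most 5 against at least 20. T cell markers and the called members were higher in the same libraries, and the part of T cells in the members' counts was not tested. The NK cell markers Ncr1, Klrb1c and Prf1 had at most 2 counts in a sham library and 3 to 14 in BCAS libraries, and Nkg7 was the 1 gene of the 6 on this list that passed the filter and was called by edgeR. DESeq2 called 2 of the 6, and without the filter Gzmb, with 2, 0 and 1 counts against 9, 4 and 36, was also called (edgeR adjusted P = 0.00416). Of plasmacytoid dendritic cell markers Siglech, which microglia also make, was a DEG (2.30). Ccr9 had 10, 10 and 11 counts against 23, 10 and 36 (log2 fold change 1.25, edgeR adjusted P = 0.0925) and was called without BCAS mouse 2 (edgeR adjusted P = 0.0295). The defining Klk1 and Ly6d had at most 4 counts in any library. The neutrophil marker Ly6g had no count in any library. S100a8 had 2, 4 and 9 counts against 5, 36 and 24, and S100a9 14, 3 and 28 against 14, 40 and 44. Ngp had 19, 6 and 25 counts against 4, 0 and 0, Camp 8, 0 and 13 against 0, 0 and 2, Mpo 8, 9 and 15 against 9, 2 and 2, and Retnlg 8, 4 and 4 against 0, 16 and 4. Without the filter on low counts S100a8 was called higher (edgeR adjusted P = 0.0240) and Ngp lower (edgeR adjusted P = 0.00970), while Camp, Mpo and Retnlg did not pass (edgeR adjusted P = 0.164, 0.390 and 0.809). Of the 7 neutrophil markers 1 was tested with edgeR and not called, with an unadjusted P above 0.05, and DESeq2 called 1 higher and 1 lower.

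Blood and border tissues were also followed. Erythrocyte markers summed to 85.6 to 102 CPM in sham libraries against 106 to 177 CPM in BCAS libraries. None of 5 was a DEG by edgeR or DESeq2, and 3 had an unadjusted P under 0.05. Leptomeningeal markers summed to 74.0 to 158 CPM in sham libraries against 156 to 280 CPM in BCAS libraries, and 3 of 6 were up-regulated DEGs, Col3a1 (3.09), Col1a1 (2.13) and Igf2 (1.40, lost without sham mouse 1 or 3, adjusted P = 0.0544 and 0.0523). The part of retained blood and of meninges in the immunoglobulin counts was not tested. Choroid plexus markers varied within both groups, from 71.3 to 4110 CPM among sham libraries and from 40.7 to 5962 CPM among BCAS libraries, and none of 6 was a DEG by edgeR or DESeq2 or had an unadjusted P under 0.05. Sham mouse 3 and BCAS mouse 2 had the least of them, with 1305 and 714 counts of Ttr. With the choroid plexus level as a covariate, chosen after seeing these values, the log2 fold changes were 3.39 for Igkc, 2.30 for Jchain, 2.27 for Cd79b and 1.92 for Ighm, and all were DEGs. The hippocampal neuron markers Fibcd1 (-1.91) and Neurod6 (-1.56) were down-regulated DEGs, and the 4 others of the list were not DEGs.

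**Figure D5:**
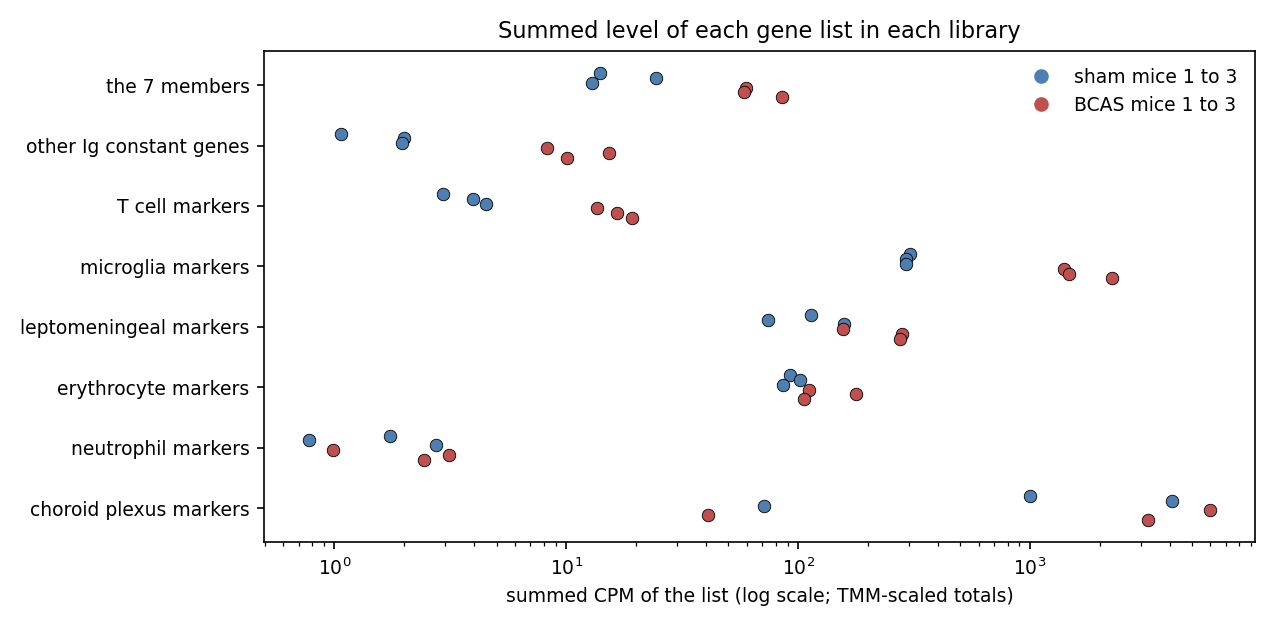
Summed CPM of each gene list (horizontal axis, logarithmic) in each library, with sham mice in blue and BCAS mice in red. The 7 members, T cell and microglia markers separate the groups, and the sum of the members is mostly Ighm. Erythrocyte markers also do not overlap between the groups but differ by a small step. Choroid plexus markers spread from 40.7 to 5962 CPM across both groups.

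For each member with at least 10 counts in every BCAS library, the genes most like it were sought among genes with a mean of at least 1 CPM, by the Euclidean distance between log2 CPM profiles centred over the 6 libraries. Ighm was nearest to Tcn2 (0.335), Tor3a (0.349) and Dok1 (0.359). Igkc was nearest to Cytip (0.581), Cd74 (0.643) and AI427809 (0.662). Jchain was nearest to Aspg (0.272), H2-Eb1 (0.305) and Sh3tc1 (0.426). Cd79b was nearest to Nfkb2 (0.354), Hacd4 (0.365) and S100a6 (0.367), and Cd79a to Gm3435 (0.522), Ssc4d (0.681) and Gcnt4 (0.741). No gene appeared among the nearest 3 of more than 1 member, and the list of Jchain and that of Igkc each held a gene of MHC class II antigen presentation, H2-Eb1 and Cd74. These distances describe 6 libraries and 2 groups, in which many genes share the step from sham to BCAS.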

How the data were processed

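Libraries from 6 mice, 3 per group by the sample labels, were used. The labels call them biological replicates. Mice carry the replicate numbers of the labels, while the value columns of the BCAS files bear the numbers 2 to 4, so a BCAS mouse here may have another number elsewhere. The members and gene lists were chosen with earlier results of these data known. The authors, per their methods and processing notes, used Trim Galore, then HISAT2 for alignment to mm10, then featureCounts. The deposited values are raw counts, whole reads per gene without normalization. The file headers name featureCounts 2.0.3 and GENCODE vM20, while the methods name version 1.6.3 and RefSeq genes. By the headers both mates of a pair were counted, strand was ignored, and reads that aligned to several places or overlapped several genes were not counted, which lowers the counts of near-identical V segments. Totals were 29652456 to 35607098 counts per library. Symbols were matched for 54723 of 54752 identifiers.

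Genes were filtered with filterByExpr (minimum count 10), normalized by TMM (factors 0.964 to 1.05) and compared with the quasi-likelihood test of edgeR 4.0.16 (limma 3.58.1, R 4.3.3), with no replicate block, and adjusted by Benjamini and Hochberg over 18617 genes. SE is the absolute log2 fold change divided by the square root of F. DEGs were taken at the study's own limits, a log2 fold change beyond 1 in either direction at an adjusted P below 0.05. DESeq2 1.42.0 was an alternative, since the methods used it. Single sums and ratios were tested with exact two-sided permutation tests, whose smallest P is 0.1. Profiles used log2 CPM with a prior count of 2. V exon sequences and neighbours came from GENCODE vM21 of the same build. Promoter and protein sequences were not used here, and some listed genes are not reported here.

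The rule was to name all 7 members, the 3 V segments with the most counts and the 3 nearest profiles of each member. It also covered up to 4 called genes of each list by largest change and the defining markers of other cell types. Not every gene under this rule was named in the results. Among those left out were the called T cell markers Cd8b1, Cd8a and Cd5 and the single microglia and erythrocyte markers. Other listed genes named with values (Bcl6, Blk, Camp, Cr2, Cxcr5, Derl3, Fcer2a, Fcgrt, Gzmb, Ighd, Ighe, Ighg1, Ighg3, Iglc1 to Iglc3, Ly6d, Mpo, Mzb1, Ngp, Pax8, Pigr, Rag1, Retnlg, Rag2, S1pr2, Sdc1, Txndc5, Xbp1) were added after their values were seen. The fit was tested on simulated data, where, of 200 changed genes in a simulated BCAS and sham comparison of 18617 genes, 172 were recovered with 1 false call. Alternatives were DESeq2, RLE factors, library totals, other filters, no fold change threshold, counts halved, a replicate block and leaving out each mouse.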

Additional observations from a re-analysis of the deposited data

How the results depend on the processing

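Under each of 15 alternatives 4 members were called, and no member with a value changed direction, where Cd79a and Pax5 had values under 14 and Ms4a1 under the fit without a filter and DESeq2 alone. Over the alternatives the log2 fold change ran from 3.06 to 3.56 for Igkc, 2.21 to 2.40 for Jchain, 2.08 to 2.58 for Cd79b, 1.68 to 2.33 for Ighm, 0.43 to 1.76 for Cd79a and -1.03 to -0.28 for Pax5. The adjusted P value of edgeR or DESeq2 reached at most 0.0168 for the 4 called members and was at least 0.0848 for Cd79a and 0.256 for Pax5. With the counts halved, because both mates were counted, Cd79a and Pax5 did not pass the filter and have no value. At this depth Ms4a1 did not pass the filter on low counts.

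Without a fold change threshold 3356 genes were up-regulated and 2463 down-regulated, against 1576 and 186. Leaving out each mouse gave 1210 to 1746 up-regulated and 96 to 238 down-regulated genes, namely 117 when sham mouse 3 and 96 when BCAS mouse 3 was left out. The called genes of the companion lists numbered 52, and 48 to 59 over the alternatives. The log2 difference of the summed V segments was 3.85, with 3.54 to 4.15 over 9 alternatives. It was 3.54 to 4.01 when each mouse was left out and 3.75 without Igkv4-59. Over all companion genes and alternatives, 19 values lost a call, 19 gained one and 1404 stayed on the same side of the threshold, called or not, and the cause was not tested.

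Mice of the 2 groups share replicate numbers in the labels, but the data show no pairing by them. The deviations of same-numbered libraries from their group means correlated at 0.036, -0.314 and -0.158, and number 1 alone matched its own number best. With the replicate number as a block, 4 members, 51 companion genes and 1437 up-regulated and 158 down-regulated genes were called, and Tnfsf13 was not (adjusted P = 0.0739).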
